A study of Capra hircus with 20 samples.

Results

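The miR-30 family is a set of closely related microRNAs, here followed through postnatal life in the goat hypothalamus. Its members were found by name: every row of the deposited miRNA table whose name, without the species prefix chi- and the arm suffix, is miR-30a, miR-30b, miR-30c, miR-30d, miR-30e or miR-30f. The rule found 11 of the 683 miRNAs in the table. Of these, 5 are 5p arms (miR-30a, miR-30b, miR-30c, miR-30e and miR-30f) and 6 are 3p arms (the same letters and miR-30d); miR-30d-5p was not analysed here. All 11 passed the filter on low values, which kept 414 miRNAs at 1 RPM or more in at least 5 of the 20 libraries.

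A microRNA is cut from a hairpin whose arms give a 5p and a 3p strand; usually one arm is loaded into Argonaute as the guide and the other is largely degraded. The 5p arms of the miR-30 family share their seed, the stretch that pairs with target mRNAs, and so have overlapping sets of targets. The 3p arms do not carry that seed. In the rat hypothalamus, miR-30 has been described as a repressor of Mkrn3, a factor that holds back puberty.

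The animals were Jining grey goats, a breed known for early puberty, kept under common conditions with free access to food and water. Hypothalamus was taken at 1, 60, 120 and 180 days after birth from 5 biological replicates per age, and small RNA libraries were sequenced from total RNA. The groups differ by age alone as far as the labels say; no treatment or allele is named, and the sources used here do not state the animals' sex or any pooling. All comparisons with day 1 share the same 5 day 1 libraries.

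Levels are given in RPM: read numbers of each miRNA after every library was set to the same total of miRNA reads. Each read counts 1 small RNA, so no division by length is needed, but ligation to the adapters differs between sequences, and an order of levels is therefore an order of read numbers. The libraries held 4018002 to 8324928 recovered miRNA reads, so that a floor of 3 reads lay between 0.360 and 0.747 RPM, which covers counting error only. Replicate 2 of day 1 stood apart, with a median Spearman correlation of 0.891 with the other libraries, against 0.916 for the next lowest, and had the lowest depth. The neuron list (miR-124a, miR-128-3p, miR-129-5p, miR-137 and miR-218) summed to at least 7841 RPM in every library. In whole tissue, fewer cells of a type and less RNA per cell cannot be told apart.

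The 11 arms together made up 1.46% ± 0.357 of the miRNA reads (SD, n = 20). Most of this came from miR-30a-5p (chi-miR-30a-5p in the table), described elsewhere as a repressor of Beclin 1 and of BDNF, at a mean of 6046 RPM over the 20 libraries, and from miR-30c-5p at 4241 RPM. They ranked 27 and 30 among the 414 tested miRNAs. Next, and close together, came miR-30e-3p at 1100 RPM, miR-30f-5p (chi-miR-30f-5p) at 965 RPM, miR-30a-3p (chi-miR-30a-3p) at 808 RPM, miR-30b-5p at 694 RPM and miR-30e-5p at 593 RPM. The remaining 3p arms were far lower: miR-30f-3p (chi-miR-30f-3p) averaged 87.6 RPM, miR-30c-3p 22.7 RPM, miR-30d-3p (chi-miR-30d-3p) 17.2 RPM and miR-30b-3p 13.8 RPM.

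Some steps in this order were clear and others were not. miR-30c-5p lay above miR-30e-3p in 20 of 20 libraries with no overlap of their ranges. miR-30a-5p lay above miR-30c-5p in 13 of 20 libraries only, with ranges that overlapped. From miR-30e-3p down to miR-30e-5p, each arm overlapped with its neighbour in the order, and each step held in 10 to 15 of the 20 libraries. Since nearly identical members can share reads, and the rule that assigned such reads is not stated, the split between them is uncertain.

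**Figure D1:**
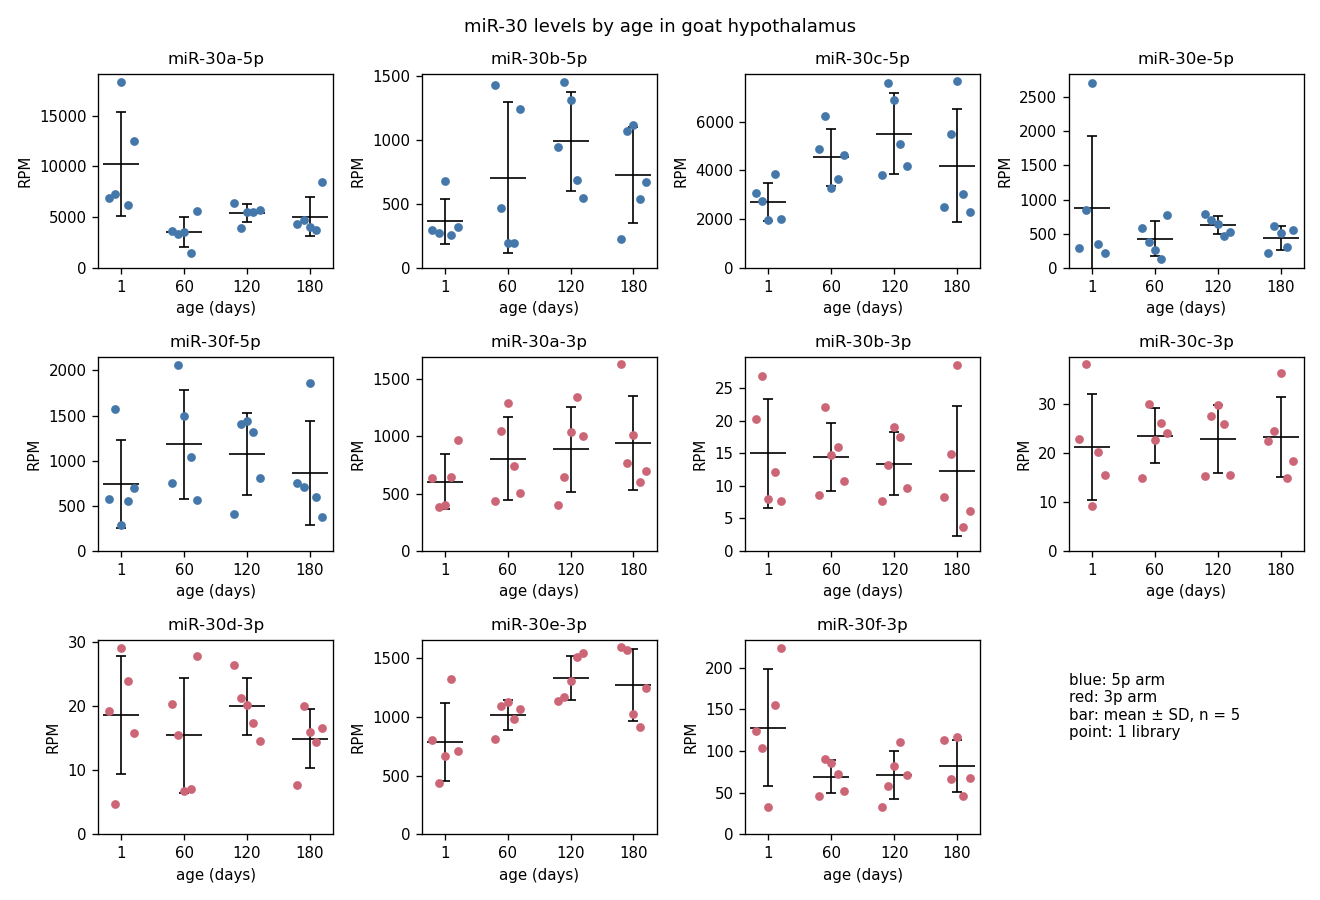
Level of each miR-30 arm in RPM (vertical axis, a scale per panel) by age in days (horizontal axis); points are libraries, bars the mean ± SD of 5, blue for 5p and red for 3p arms. The 5 day 60 libraries of miR-30a-5p, at most 5596 RPM, lie below the 5 day 1 libraries, at least 6235.5 RPM, while nearly all other panels overlap between ages.

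miR-30a-5p was lower on day 60 than on day 1, and it was the only arm of the family whose level passed the test in that comparison. It measured 3628, 3367, 3517, 1417 and 5596 RPM in the day 60 libraries. In the day 1 libraries it measured 6927, 7283, 18282, 6235.5 and 12495 RPM. Every day 60 library lay below every day 1 library. The means were 3505 ± 1481 RPM on day 60 and 10245 ± 5136 RPM on day 1 (SD, n = 5 each), a log2 fold change of -1.54 (SE 0.39, limma with Benjamini-Hochberg adjustment, adjusted p = 0.0249). Of all 414 tested miRNAs, 3.86% were called in this comparison, 3.14% lower and 0.725% higher, against 1 of the 11 miR-30 arms. Groups without overlap were found for 1 of the 11 arms and for 3.14% of all tested miRNAs.

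The day 1 values of miR-30a-5p were uneven. Replicate 3 of day 1 held 18282 RPM of it and also the highest day 1 levels of miR-30b-5p, at 676 RPM, and miR-30e-5p, at 2701 RPM. Without that library the log2 fold change of miR-30a-5p was -1.30 with an adjusted p of 0.0829 (limma, Benjamini-Hochberg), and the call was lost. It was also lost without replicate 2 of day 60 (adjusted p = 0.0627), without replicate 4 of day 60 (log2 fold change -1.25, adjusted p = 0.0864) and with only the libraries of days 60 and 1 in the fit (adjusted p = 0.162). Over 31 alternative settings the call held in 27, with adjusted p-values between 0.00417 and 0.162. With 1 library left out it held in 17 of 20 fits, and every loss came from leaving out a day 1 or day 60 library. Fits without a day 120 or day 180 library keep the change at -1.54, so they say little about it. Without replicate 2 of day 1, the library that stood apart, the change was -1.63 (adjusted p = 0.0352).

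At the later ages the mean of miR-30a-5p lay between those of days 60 and 1. It measured 6370, 3961, 5472, 5468 and 5663 RPM on day 120. On day 180 it measured 4302, 4730, 3988, 3758 and 8452 RPM. Both sets overlapped with day 1 in their highest library. Neither difference from day 1 passed: the log2 fold change was -0.81 on day 120 (SE 0.39, limma, adjusted p = 0.218) and -0.96 on day 180 (SE 0.39, adjusted p = 0.165). In limma's F test over the 4 ages 1.93% of the tested miRNAs were called and none of the 11 arms, among which miR-30a-5p had the lowest adjusted p, 0.0998. DESeq2's likelihood ratio test over the 4 ages, run on the recovered reads, called miR-30a-5p (adjusted p = 0.0225), 1 of the 11 arms. It called 90 of all 414 tested miRNAs (21.7%).

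The second abundant member, miR-30c-5p, had its lowest mean on day 1. It measured 4894, 6226, 3263, 3652 and 4637 RPM on day 60, against 3065, 2726, 1952, 3840 and 2005 RPM on day 1. Only replicate 4 of day 1 reached into the day 60 range. The log2 fold change was 0.75 (SE 0.38) and did not pass (limma, adjusted p = 0.258). On day 120 the libraries held 3795, 7573, 6909, 5104 and 4191 RPM of miR-30c-5p, so that 1 day 120 library lay just below the highest day 1 library, and the difference from day 1 was 1.02 (SE 0.38, adjusted p = 0.120). On day 180 it ranged from 2301 to 7683 RPM and its difference from day 1 was 0.51 (adjusted p = 0.458).

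miR-30b-5p was widely spread at the later ages. On day 60 it stood at 1426, 465, 194, 196 and 1237 RPM, against 295, 273, 676, 258 and 317 RPM on day 1. The day 60 libraries thus lay both above and below the day 1 range. On day 120 it measured 942, 1449, 1309, 686 and 547 RPM. Its difference from day 1 on day 120, 1.44 (SE 0.55), was the largest of the 11 arms in that comparison and did not pass (limma, adjusted p = 0.136). With DESeq2, miR-30b-5p and miR-30c-5p were both called higher on day 120 than on day 1 (adjusted p = 0.0351 each), 2 of the 11 arms beside 74 of all 414 tested miRNAs (17.9%), a share near that of the arms. limma called none of the 11 arms and 3.38% of all tested miRNAs in the same comparison.

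The means of miR-30f-5p were 740 ± 488 RPM at day 1, 1184 ± 604 at day 60, 1075 ± 452 at day 120 and 861 ± 577 at day 180 (SD, n = 5 each). Those of miR-30e-5p were 882 ± 1047, 427 ± 257, 626 ± 132 and 438 ± 173 RPM in the same order of ages. The large day 1 spread of miR-30e-5p came from replicate 3, at 2701 RPM, and replicate 2, at 850 RPM; the other day 1 libraries held 217 to 347 RPM. Neither arm passed in any comparison (lowest adjusted p = 0.435 for miR-30f-5p and 0.596 for miR-30e-5p against day 1, limma).

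Among the 3p arms, miR-30e-3p was the most abundant and had its lowest mean on day 1. It averaged 785 ± 328 RPM at day 1, 1016 ± 129 at day 60, 1330 ± 189 at day 120 and 1270 ± 308 at day 180 (SD, n = 5 each). Against day 1 its log2 fold change was 0.84 on day 120 (SE 0.34, limma, adjusted p = 0.160) and 0.75 on day 180 (SE 0.34, adjusted p = 0.215). Its 5 day 120 libraries, at 1131 RPM or more, lay just above its 5 day 60 libraries, at 1130 RPM or less. This made it the 1 of the 11 arms without overlap between days 120 and 60, where 0.966% of all tested miRNAs were separated. The difference of 0.39 did not pass (SE 0.34, adjusted p = 0.932), and neither did that of any of the 414 miRNAs. No arm was separated between days 120 and 1, 180 and 1, or 180 and 120, where 7.25%, 3.62% and 0.725% of all tested miRNAs were.

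The other 3p arms showed no call at any age. miR-30a-3p averaged 604 ± 236 RPM at day 1, 803 ± 362 at day 60, 885 ± 367 at day 120 and 940 ± 412 at day 180 (SD, n = 5 each). miR-30f-3p averaged 128 ± 69.8, 69.2 ± 19.8, 70.9 ± 29.0 and 82.1 ± 31.3 RPM in the same order of ages. Its day 1 libraries covered almost its whole range, with 33.2 RPM in the lowest and 224 RPM in the highest. The 3 rare arms miR-30b-3p, miR-30c-3p and miR-30d-3p kept their age means between 12.3 and 23.5 RPM.

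As a group, the 11 arms were divided in direction. On day 60 against day 1, 7 lay above 0 and 4 below, with a median log2 fold change of 0.25, beside -0.04 and 46.6% above 0 for all tested miRNAs. On day 120 against day 1, 8 lay above 0, with a median of 0.27, beside -0.12 and 43.7%. On day 180 against day 1, 6 lay above 0, with a median of 0.21, beside -0.25 and 37.4%; limma called none of the arms there and 3.38% of all miRNAs. The signs of the small changes of miR-30b-3p, miR-30d-3p and miR-30e-5p are not firm, since another scaling or test turned at least 1 of each. Between the neighbouring ages 120 and 60, and 180 and 120, limma called 0 of the 11 arms and 0 of all 414 miRNAs, with 13 and 3 of the 414 at an unadjusted p under 0.05 and no call by edgeR or DESeq2.

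**Figure D2:**
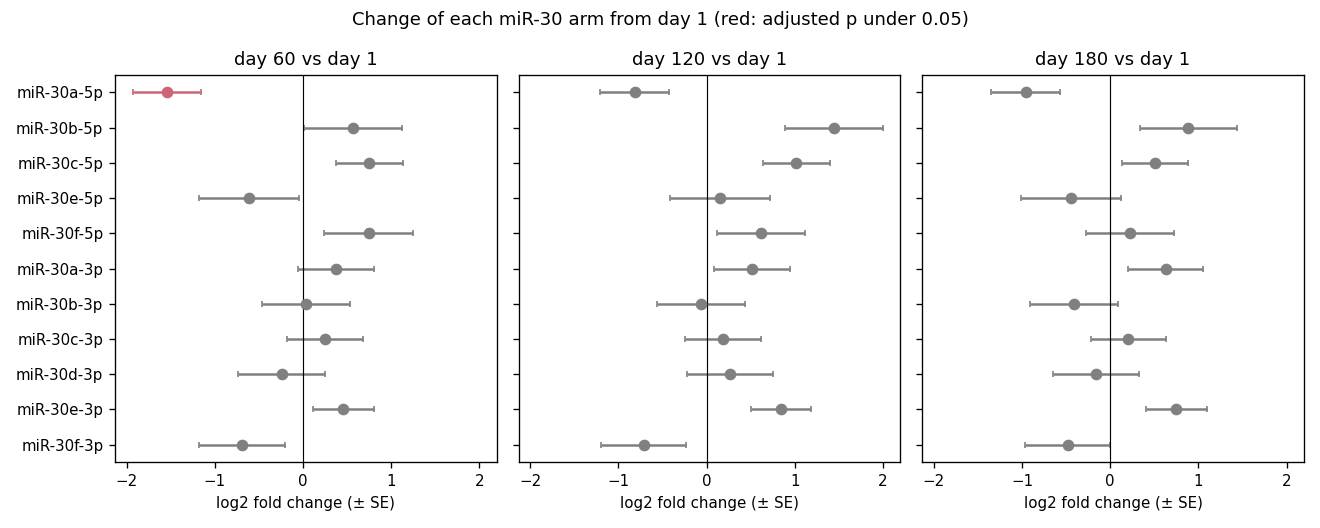
Log2 fold change against day 1 (horizontal axis, ± SE) of each miR-30 arm on days 60, 120 and 180, from limma on log2(RPM + 1) with 5 libraries per age. The red point, miR-30a-5p on day 60 at -1.54, is the one with an adjusted p under 0.05; arms lie on both sides of 0 in each panel.

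Because the 5p arms share a seed, their summed level and its make-up were also described. The summed 5p level was 14948 ± 5337 RPM at day 1, 10354 ± 2713 at day 60, 13589 ± 1759 at day 120 and 11265 ± 3089 at day 180 (SD, n = 5 each). The summed 3p level was 1572 ± 505, 1941 ± 485, 2342 ± 566 and 2342 ± 658 RPM in the same order. These values carry no test.

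The make-up of the 5p sum differed more than its size. miR-30a-5p made up 33.0% ± 9.03 of it on day 60, against 66.2% ± 11.1 on day 1 (SD, n = 5 each). miR-30c-5p made up 44.7% ± 8.61 on day 60, against 20.8% ± 10.6 on day 1. In the day 60 libraries miR-30a-5p took 21.98 to 43.7% of the sum, and in the day 1 libraries 55.5 to 79.4%, so the groups did not overlap. The level of miR-30a-5p was itself apart between these ages, so its share is not a separate result. Within a library a smaller share of miR-30a-5p also raises the shares of the others. miR-30d-5p is not in the sum, and no such share was taken for other miRNA families. Its share was 40.6% ± 10.3 on day 120, where the highest library had 51.8%, below every day 1 library. It was 46.4% ± 16.0 on day 180, where 1 library, at 68.4%, reached into the day 1 range.

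The ratio of miR-30a-5p to miR-30c-5p within each library was also taken, which leaves other miRNAs aside. It was 0.741, 0.541, 1.08, 0.388 and 1.21 in the day 60 libraries, against 2.26, 2.67, 9.37, 1.62 and 6.23 in the day 1 libraries. miR-30a-5p thus exceeded miR-30c-5p in 5 of 5 day 1 libraries, and miR-30c-5p was the higher one in 3 of 5 on day 60. The mean ratio was 1.08 ± 0.454 on day 120 and 1.61 ± 1.24 on day 180 (SD, n = 5 each). This ratio was chosen after its values were seen and is given as a description, with no test. The smaller members miR-30b-5p, miR-30e-5p and miR-30f-5p each averaged between 2.38 and 12.2% of the sum at every age.

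**Figure D3:**
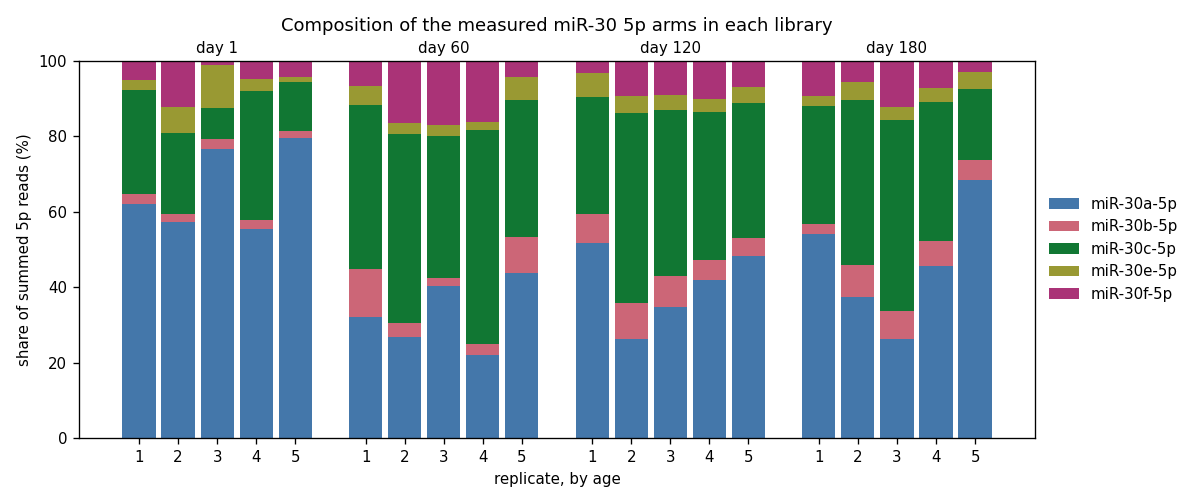
Share of each measured miR-30 5p arm in their summed reads (vertical axis, %) in each of the 20 libraries, grouped by age (horizontal axis, replicate number). miR-30a-5p fills 55.5 to 79.4% of the day 1 bars and 21.98 to 43.7% of the day 60 bars.

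The balance between the arms of a hairpin was measured as the 5p to 3p ratio within a library, where the library total cancels. In 4 of the 5 hairpins with both arms measured, miR-30a, miR-30b, miR-30c and miR-30f, the 5p arm was higher in 20 of 20 libraries. miR-30c was the most one-sided, with a mean ratio of 193 ± 63.6 over the 20 libraries (SD), followed by miR-30b at 64.6 ± 48.9. In miR-30e the order was turned round: its 3p arm was higher in 18 of 20 libraries. The exceptions were replicates 2 and 3 of day 1, with 5p to 3p ratios of 1.96 and 4.07. Of all 120 hairpins with both arms tested, 54 had the 5p arm higher in every library, 42 the 3p arm, and 24 (20%) varied between libraries.

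The neighbouring hairpins miR-30a and miR-30f changed their arm ratio in opposite directions between day 1 and day 60. In miR-30a the ratio was 8.40, 3.22, 2.73, 1.90 and 11.1 in the day 60 libraries, against 10.9, 19.1, 45.7, 9.73 and 13.0 in the day 1 libraries. Only the highest day 60 library reached into the day 1 range. The change of the log2 ratio was -1.92 (SE 0.53, limma with Benjamini-Hochberg adjustment over 120 hairpins, adjusted p = 0.0267), the second lowest of the 120. It draws on the level of miR-30a-5p, which changed by -1.54 as given above, so the 2 calls are not independent. miR-30a-3p changed by 0.37 and did not pass (limma, adjusted p = 0.671).

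In miR-30f the ratio was 16.4, 22.9, 17.4, 14.5 and 10.9 on day 60, against 4.69, 15.2, 8.84, 3.58 and 3.10 on day 1. The high day 1 value belonged to replicate 2, the library that stood apart, and the other 4 lay below every day 60 library. Depth differed in the same way: replicate 2 of day 1 held 4018002 reads and the other day 1 libraries 7130575 to 8284461. The day 60 libraries held 4353386 to 6426411. Over the 20 libraries the r with log2 depth was -0.60 for miR-30f-5p and -0.13 for miR-30f-3p. The part of depth in the change of this ratio was not tested. The change was 1.43 (SE 0.43, limma, adjusted p = 0.0281), the 12th highest of 120. Neither arm passed by its own level: miR-30f-5p changed by 0.74 (limma, adjusted p = 0.435) and miR-30f-3p by -0.69 (adjusted p = 0.457). Without replicate 2 of day 1 it was 1.78 (adjusted p = 0.00838), and that of miR-30a was -1.86 (adjusted p = 0.0387).

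Changes of arm ratio were common in this comparison: limma called 24.2% of the 120 hairpins, 12.5% lower and 11.7% higher, beside 2 of the 5 miR-30 hairpins. In none of the 5 were the groups fully apart, while 5.0% of all hairpins were. The same held in the other comparisons, where 10.8% of all hairpins were apart between days 120 and 1, 6.67% between days 180 and 1, 2.5% between days 120 and 60, and 0.833% between days 180 and 120. The miR-30a call was lost without replicate 3 of day 1 (-1.55, adjusted p = 0.0595) and without replicate 2, 3 or 4 of day 60 (adjusted p = 0.0577, 0.0698 and 0.0546). The miR-30f call was lost without replicate 4 or 5 of day 1 (adjusted p = 0.0502 and 0.0642) and without the same 3 day 60 libraries (adjusted p = 0.0718, 0.0698 and 0.0535). With only days 60 and 1 in the fit, both had an adjusted p of 0.111.

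The other hairpins did not pass on day 60: the change was 0.50 for miR-30c (limma, adjusted p = 0.346), 0.53 for miR-30b (adjusted p = 0.576) and -1.07 for miR-30e (adjusted p = 0.232). On day 120 against day 1, none of the 5 was called, beside 6.67% of all hairpins; miR-30f changed by 1.33 (adjusted p = 0.0513) and miR-30a by -1.33 (adjusted p = 0.104). Without replicate 2 of day 1 the ratio of miR-30f changed by 1.67 on day 120 (adjusted p = 0.0126), and without replicate 3 of day 1 by 1.47 (adjusted p = 0.0312), so that it was then called. On day 180 against day 1, again none was called, beside 9.17% of all; miR-30a changed by -1.59 (adjusted p = 0.0561). That ratio was called without replicate 4 of day 1, replicate 4 or 5 of day 60, or replicate 1 of day 120, at adjusted p-values of 0.0476 to 0.0490. Between neighbouring ages after day 60 limma called 0 of 120 hairpins, with 7 at an unadjusted p under 0.05 for day 120 against day 60 and 0 for day 180 against day 120.

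**Figure D4:**
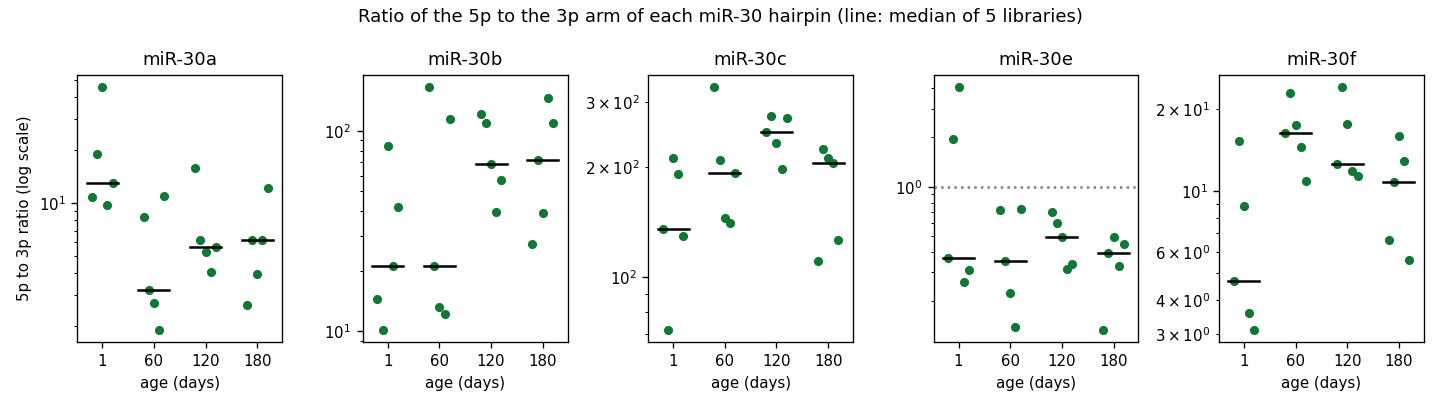
Ratio of the 5p to the 3p arm (vertical axis, log scale) of the 5 miR-30 hairpins with both arms measured, by age in days; points are libraries, lines the median of 5, and the dotted line in the miR-30e panel marks equal arms. On day 60 the miR-30a ratio is mostly below and the miR-30f ratio mostly above its day 1 values, and miR-30e lies under 1 in 18 of 20 libraries.

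The hairpin genes lie in pairs. In the RefSeq annotation of goat assembly ARS1.2, MIR30E and MIR30C are neighbours and both lie inside NFYC, which encodes a subunit of a CCAAT-binding transcription factor. MIR30B and MIR30D are neighbours inside the long non-coding RNA gene LOC108637533. MIR30F and MIR30A are neighbours between OGFRL1 and RIMS1 and overlap no other gene. The mature names do not say which gene copy a read came from.

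Levels of neighbouring genes did not always vary together over the 20 libraries, which share depth, scaling and age. Pearson's r of log2(RPM + 1) was 0.68 between miR-30b-5p and miR-30d-3p, but -0.26 between the 3p arms miR-30b-3p and miR-30d-3p. It was 0.08 between miR-30c-5p and miR-30e-5p, and 0.07 between miR-30c-3p and miR-30e-3p. For the miR-30a and miR-30f pair it was -0.54 between the 5p arms and 0.56 between the 3p arms. After the age means were removed, these became -0.49 and 0.83. Over all pairs of tested miRNAs the median r was 0.12, and the 5th and 95th percentiles were -0.48 and 0.70. The value of miR-30c-5p with miR-30e-5p rested on replicates 2 and 3 of day 1, since it was 0.56 without them.

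The arms of one hairpin also varied together less in some members than in most hairpins. The r between 5p and 3p was -0.29 for miR-30a, -0.23 for miR-30e, -0.06 for miR-30b, 0.39 for miR-30f and 0.57 for miR-30c. The median over 120 hairpins was 0.48, with miR-30a at rank 2 and miR-30e at rank 5 from the lowest. With the age means removed, r was -0.16 for miR-30a, -0.32 for miR-30e and -0.02 for miR-30b. It was then 0.64 for miR-30f and 0.61 for miR-30c, and these values were not ranked. Without replicates 2 and 3 of day 1, and with the age means kept, the value was -0.05 for miR-30a and 0.27 for miR-30e. Across hairpins the closest pair was miR-30b-3p with miR-30c-3p, at 0.82, followed by miR-30f-5p with miR-30c-3p at 0.80.

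Several of these arms also moved with library depth. The r with log2 depth was -0.62 for miR-30b-3p, -0.60 for miR-30f-5p, -0.55 for miR-30c-3p and 0.64 for miR-30d-3p, 0.35 for miR-30e-3p, and between -0.13 and 0.25 for the other arms. Depth thus moved with the arms of the closest pairs, and its part in these correlations was not tested.

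**Figure D5:**
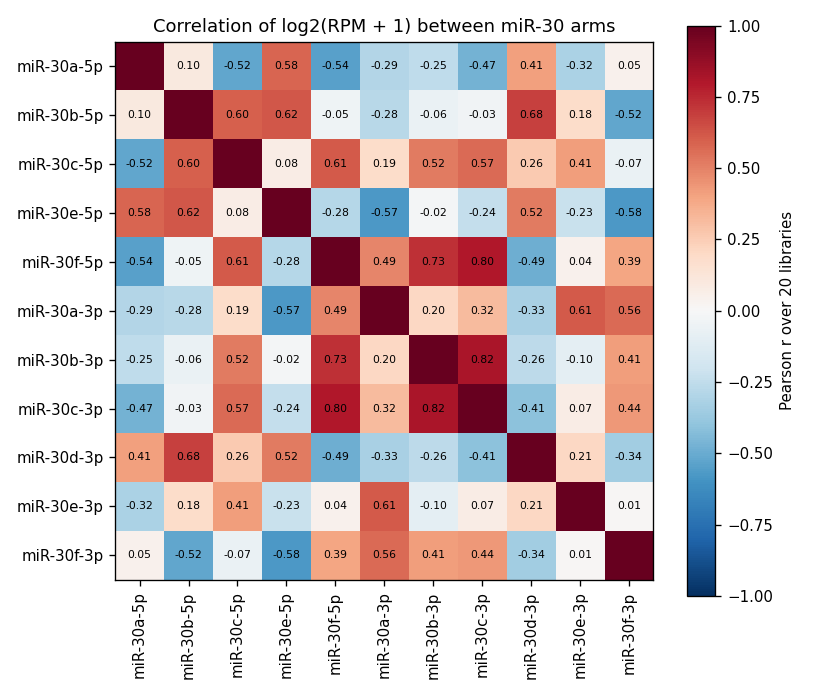
Pearson's r of log2(RPM + 1) between each pair of miR-30 arms over 20 libraries (colour and printed value), with the arms on both axes. miR-30b-3p, miR-30c-3p and miR-30f-5p form the closest group at 0.73 to 0.82, and miR-30a-5p is negative with miR-30c-5p at -0.52 and miR-30f-5p at -0.54.

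Outside the family, the miRNAs most like each 5p arm over the 20 libraries differed from arm to arm. For miR-30a-5p they were miR-1271-5p (r = 0.82), miR-497-5p (0.78) and miR-3431-5p (0.77). For miR-30b-5p they were miR-9-3p (0.90), miR-374a-5p (0.88) and miR-126-5p (0.87), and for miR-30c-5p let-7a-3p (0.85), miR-656 (0.79) and miR-365-3p (0.79). For miR-30e-5p they were miR-190a-5p (0.86), miR-106b-5p (0.84) and miR-19b-3p (0.83), and for miR-30f-5p let-7b-3p (0.90), miR-125a-5p (0.88) and let-7b-5p (0.85). No miRNA was among the 3 closest of more than 1 arm. miR-190a-5p averaged only 3.18 RPM. By Spearman's rho the 3 partners of miR-30e-5p ranked 9, 10 and 13, and after age means were removed 2, 6 and 1. Of all 15 partners, 7 stayed among the closest 3 by rho.

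Other miRNAs linked to puberty and to gonadotropin-releasing hormone were followed beside the family. Of 16 listed, 13 were in the table and 12 were tested, and limma called 0 of the 12 in each of the 3 comparisons with day 1. Of all 414 tested miRNAs it called 3.86% on day 60 and 3.38% on each of days 120 and 180. On day 60 against day 1, 6 lay above 0 and 6 below, with 2 at an unadjusted p under 0.05 (limma). Of all 414 tested miRNAs, 46.6% lay above 0 and 21.0% had an unadjusted p under 0.05. let-7a-5p, of a family that accumulates as cells mature, averaged 65988 ± 35168 RPM on day 60 and 23635 ± 8438 on day 1 (SD, n = 5 each; log2 fold change 1.37, adjusted p = 0.0820). let-7b-5p averaged 22488 ± 13237 RPM on day 60 and 9663 ± 2612 on day 1 (1.06, adjusted p = 0.189). Both let-7 members thus had the higher mean on day 60 without passing the test. miR-9-5p, a neural miRNA, averaged 141362 ± 68037 RPM on day 60 and 224857 ± 78261 on day 1 (log2 fold change -0.74, adjusted p = 0.250). miR-7-5p, abundant in neuroendocrine cells, averaged 125963 ± 85257 RPM on day 60 and 65193 ± 43396 on day 1 (1.03, adjusted p = 0.456).

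Markers of other cells were measured in the same day 60 and day 1 libraries. Of all 414 tested miRNAs, limma called 3.14% lower and 0.725% higher in this comparison, and 46.6% lay above 0. The summed level of the neuron list (2 of 5 tested above 0, none called) ran from 16076 to 48761 RPM on day 60 and from 7841 to 51697 on day 1. The multiciliated and choroid plexus list (4 of 6 tested, 1 above 0 and 3 below, 1 called lower) ran from 2354 to 11058 RPM on day 60 and from 2675 to 7688 on day 1, with miR-449b-5p listed at 0 in all 5 day 60 libraries. The day 60 and day 1 ranges of both sums overlapped. Erythroid markers (0 of 3 above 0, none called) ran from 149 to 290 RPM on day 60 and from 90.5 to 1552 on day 1. Muscle markers (3 of 5 above 0, none called) ran from 642 to 2310 RPM on day 60 and from 336 to 2667 on day 1, and liver markers (3 of 3 above 0, 1 called higher) from 884 to 3036 RPM on day 60 and from 550 to 1709 on day 1. The ranges of these 3 sums overlapped too. Overlapping sums can hide changes of single markers between days 60 and 1. In the liver list the log2 fold change reached 3.78 (median 0.02), the highest of all 414 tested miRNAs. In the multiciliated and choroid plexus list it went down to -2.70 (median -1.44). The other 3 lists lay between -1.13 and 1.37. The part of all 5 lists in the miR-30 changes was not tested.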

How the data were processed

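Small RNA of 20 goat hypothalamus libraries (4 ages, 5 each) was analysed. Per the labels' protocols, Trizol RNA went into NEBNext small RNA libraries. Bowtie is named in the submitters' processing notes; no source used here gives its version, a genome build, a miRNA catalogue or a counter. The deposited values of 683 miRNAs are in RPM: the headers say TPM, but low values in a column are whole multiples of 1 step, with sums at most 16.2 RPM short of the full total, so no length was divided out. A further deposited column, a summed signal over the libraries, was not used. Below 1000 reads, 100% of values divided by their step were whole (tolerance 0.1 read). No libraries of an age agreed within sampling noise (chi-square per degree of freedom at least 357 over 40 pairs).

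From the RPM, limma 3.58.1 (R 4.3.3; eBayes with trend, two-sided) was run on log2(RPM + 1), a scale that understates changes of low miRNAs, for 414 miRNAs in 1 fit of all 20 libraries with 4 age means (16 residual and 9.51 prior degrees of freedom; median SE 0.518). P-values were adjusted by Benjamini-Hochberg over all tested miRNAs, and calls made at 0.05. Arm ratios were fitted likewise over 120 hairpins. The tests were tried on simulated reads with a common spread for all miRNAs that was not taken from these libraries. That trial therefore does not give the error rates of the tests here. Alternatives were pseudocounts of 0.1 and 5, filters, scalings, no variance trend, only the 2 ages compared, a replicate block, leaving out each library, and edgeR 4.0.16 and DESeq2 1.42.0 on the recovered reads. All rows of the family are named; of the puberty list the 4 most abundant; for likeness the 3 named miRNAs with the highest r. The members, lists and tests were chosen with earlier results of these data known. Sequences, and relatives outside the rule such as miR-384, were not analysed here.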

Additional observations from a re-analysis of the deposited data

Results flagged for a closer look

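Of 64 sets of 5 libraries examined (each arm's level and each hairpin's arm ratio at each age), 6 had 1 library far from its group by Dixon's criterion, which chance meets in about 1 of 20 groups. miR-30a-5p stood at 8452 RPM in replicate 5 of day 180, where the next highest library had 4730 RPM. In replicate 3 of day 1, miR-30b-5p stood at 676 RPM, with 317 RPM in the next library, and miR-30e-5p at 2701 RPM, with 850 RPM in the next. The 5p to 3p ratio of miR-30a was 45.7 in the same library, with 19.1 in the next. miR-30f-5p stood at 1859 RPM in replicate 3 of day 180, with 754 RPM in the next library. The miR-30a ratio was 15.8 in replicate 1 of day 120, with 6.18 in the next.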

How the results depend on the processing

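With only the 2 ages compared, the day 60 calls were 0 arms and 0 hairpins, in place of 1 and 2; with 1 library left out they ran from 0 to 1 and from 0 to 2. DESeq2 called 2 of 11 arms on day 120 and 1 in its likelihood ratio test over the ages, in place of 0. Beside these it called 17.9% and 21.7% of all miRNAs. For arm ratios on day 120 the count was 1 without a variance trend, 1 with a replicate block and from 0 to 1 with a library left out; on day 180 it ran from 0 to 1. In the other settings run, the counts of called miR-30 arms and hairpins stayed as reported.

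Replicate numbers gave no clear pairing of the libraries. Same-numbered libraries had deviations with a median r of 0.07 (11 of 30 pairs over 0.1). Libraries with other numbers had a median r of -0.05 (39 of 120 pairs over 0.1). Of the 20 libraries, 4 correlated best with their own number. With a replicate block miR-30a-5p had an adjusted p of 0.0197 (limma), the ratios of miR-30a and miR-30f 0.0291 and 0.0222, and 1 hairpin, miR-30f, was called on day 120 (adjusted p = 0.0152); all miRNAs called on day 60 were 21, and hairpins on day 180 were 7, in place of 16 and 11.

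Values not past the test changed sign as follows, and the cause was not tested. With quantile scaling miR-30d-3p was 0.0036 on day 60 and 0.28 on day 180, and miR-30b-3p 0.27 on day 120 and 0.12 on day 180. With median-of-ratios scaling miR-30d-3p was 0.0278 on day 180. miR-30e-5p on day 120 was -0.28 with edgeR and -0.40 with DESeq2. With 1 library left out, ranges that crossed 0 were -0.15 to 0.28 for miR-30b-3p on day 60; -0.18 to 0.73 for miR-30e-5p, -0.055 to 0.43 for miR-30c-3p, -0.13 to 0.47 for miR-30d-3p and -0.25 to 0.17 for miR-30b-3p on day 120. On day 180 they were -0.11 to 0.55 for miR-30f-5p, -0.78 to 0.13 for miR-30e-5p, -0.0357 to 0.45 for miR-30c-3p and -0.56 to 0.0432 for miR-30d-3p. The miR-30b ratio on day 60 ran from -0.00736 to 0.94.

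Counts over all miRNAs were unstable. On day 60 the 16 calls became 9 without a filter, 40 with median-of-ratios and 34 with quantile scaling, 4 with 2 ages, 57 with edgeR and 86 with DESeq2, and 2 to 43 with a library left out. On day 120 the 14 became 36, 39, 4, 43 and 74 under the last 5 settings, and 7 to 29. On day 180 the 14 became 7 at a pseudocount of 0.1, 8 without a filter, 5 at 10 RPM, and 23, 25, 5, 22 and 61 under the same 5, and 5 to 31. The F test's 8 became 30 and 28 with the 2 scalings, 39 with edgeR, 90 with DESeq2's likelihood ratio test, and 5 to 16. The share of higher calls on day 60, 18.8%, was 30% with median-of-ratios and 35.3% with quantile scaling; on day 180 it was 48.0% with quantile scaling, in place of 21.4%. The median of all changes on day 180, -0.25, was -0.03 and -0.00285 under these scalings. Hairpins called on day 60 were 18 at a pseudocount of 5, 19 at 10 RPM, 1 with 2 ages and 5 to 29 with a library left out, in place of 29; on day 120, 4 at 10 RPM, 13 without a trend and 8 to 15, in place of 8; on day 180, 3 and 5 with the pseudocounts, 3 at 10 RPM, 1 with 2 ages and 1 to 13, in place of 11. Of the 15 closest partners, 7 stayed among the closest 3 by Spearman's rho, 6 after removing age means and 9 with quantile scaling. The planned comparison of miR-30a-5p with miR-30d-5p was not run.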
